A study of Nannochloropsis oceanica strain IMET1 with 6 samples.

Results

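Of the 9552 genes listed for the marine alga Nannochloropsis oceanica strain IMET1, 60 are described here. In the wild type (WT) they were weakly read or listed at 0. They were read in every library of the insertional mutant HLM23, with a mean at least 4 times the WT mean. They were chosen by their own levels. The mean normalised read count had to be at least 20 in the 3 HLM23 libraries and below 50 in the 3 WT libraries, the HLM23 mean had to be at least 4 times the WT mean, and the lowest HLM23 value had to lie above the highest WT value. Levels in HLM23 and in WT are therefore given as a description, without a test. HLM23 is an insertional loss-of-function strain for the gene NO06G03670 (genotype NO06G03670-), set against WT control cultures. The series looks for targets that raise the lipid content of this alga. Cultures of both strains began at an optical density (750 nm) of 0.1 in 25 ml of artificial sea water with added nutrients. They grew at 25 °C under a light intensity of 600 μmol per square metre and second for 16 h a day, followed by 8 h of darkness, and 22 ml was taken after 3 days, 1 h before the dark phase. HLM23 is a single mutant strain, so the disrupted gene and any other difference of that strain cannot be told apart.

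Nannochloropsis is a genus of small unicellular algae of the stramenopile lineage, known for storing oil as triacylglycerol. Insertional mutants are made by letting a resistance cassette integrate at a random place in the genome. The literature describes NO06G03670 as coding for an APETALA2-like protein, and AP2 domains are DNA-binding domains found in many transcription factors of plants and algae. A gene close to silent in an mRNA library may be untranscribed, or transcribed in few cells or at another hour of the day. In RNA from a whole culture, few cells with many transcripts and many cells with few transcripts cannot be told apart. The deposited table pairs no gene ID with a description, and none of the IDs occurs in the reference of 160 genes used here, so no function is given for any of the 60 genes. By the rule used for naming, an ID is printed for NO23G00710, and the others are identified by chromosome, start and end as the deposited table lists them, for which the sources used here give no genome build.

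A normalised read count is the number of reads counted to a gene divided by a size factor of its library, and 1 read was worth between 0.939 and 1.09 in the 6 libraries. Worked back in this way, the reads counted to the listed genes were 15331673, 16346247 and 18711316 in the HLM23 libraries. In the WT libraries they were 16406373, 16210183 and 16348009. Reads not counted to a listed gene are not in these totals. The disrupted gene was still read in HLM23, at 944 ± 152 against 1837 ± 284 in WT (SD, n = 3 each, log2 fold change of -0.96 with an SE of 0.18, limma adjusted p = 0.0026). In the 60 genes, replicate 2 of either strain often lay nearest to the other strain, and values without it are given where they differ. No label states that replicates came from separate cultures, so SDs and p-values cover only the spread among these 6 libraries.

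The 60 genes are the upper edge of a class of weakly read genes. Of all genes, 1267 had a WT mean below 50. Of those, 539 reached a mean of 20 in HLM23, 61 of them with at least 4 times the WT mean, and 60 of the 61 did not overlap between the strains. The gene left out by overlap, at 234509 to 235354 on chromosome 3, had 81.4, 1.95 and 4.00 normalised reads in HLM23, against 4.69, 1.92 and 4.03 in WT, so its HLM23 mean rested on replicate 1. All 60 genes passed limma's test for a higher level in HLM23, where 14.5% of tested genes did, and all 60 had an adjusted p under 0.05 for a higher level in the authors' deposited table, where 16.0% of genes did. The lowest HLM23 value lay above the highest WT value in 23.9% of all genes, and 2.84% of all genes had a ratio of means of at least 4. These counts follow from the rule and are printed only for scale. Close to the rule's limits, the lowest HLM23 means inside were 20.3, 26.1 and 26.5, and the closest outside were 19.6, 19.5 and 19.4. The highest WT means inside were 41.2, 46.4 and 46.9, and the closest outside were 52.8, 52.8 and 64.2. The lowest ratios inside were 4.03, 4.03 and 4.03, and the closest outside were 3.96, 3.96 and 3.94.

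**Figure D1:**
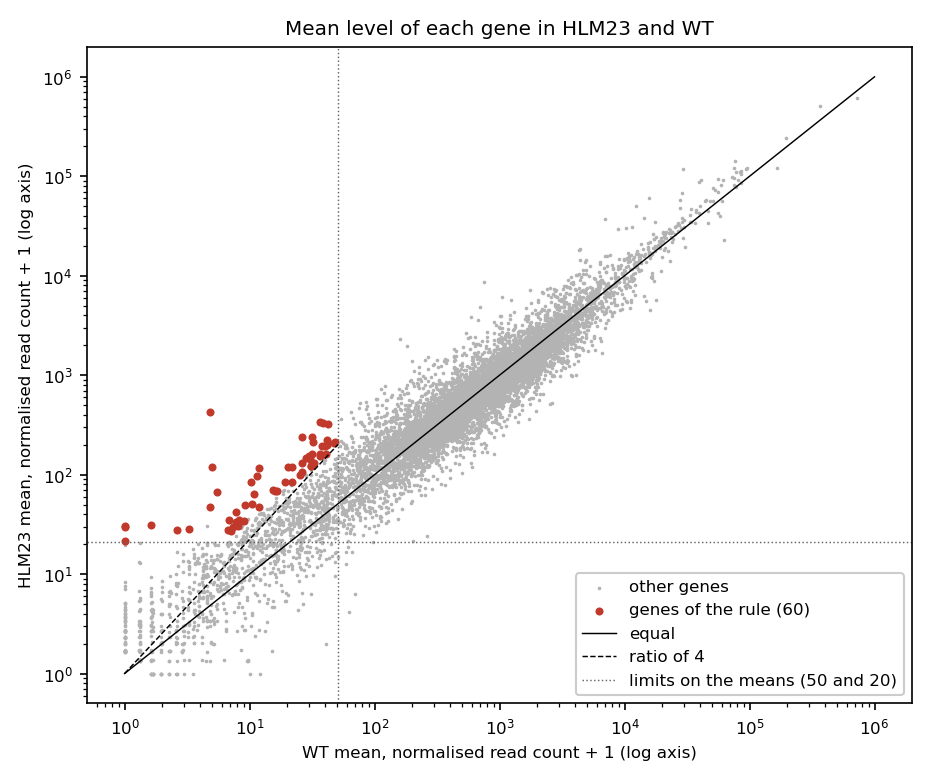
Mean normalised read count plus 1 of every gene in HLM23 (y axis, log scale) and WT (x axis, log scale), with the 60 genes of the rule in red and the others in grey. The red points fill the corner above the HLM23 limit of 20, left of the WT limit of 50 and above the dashed line for a ratio of 4, and the highest red point, NO23G00710, lies far above that line.

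The rule gave 60 genes that were high in HLM23, against 12 that were high in WT when the strains were exchanged in it. The starting classes were of similar size, since 1184 genes had an HLM23 mean below 50. The size of the excess depended on scaling: when libraries were scaled to equal totals instead of by the deposited size factors, which moved the median of all genes to -0.11 on the log2 scale, 45 genes met the rule and 18 its opposite. Without both replicate 2 libraries the counts were 108 and 36. Among the 1107 tested genes with a WT mean below 50 outside the 60, the median log2 fold change was 0.56, against -0.0022 over all tested genes. Of them, 144 (13.0%) were called higher in HLM23, against 14.5% of all tested genes, and 36 (3.25%) were called lower, against 14.3% of all tested genes. These genes were chosen by a low WT mean, which the fold change also uses.

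Only 3 of the 60 genes were listed at 0 in every WT library. The gene at 95495 to 98297 on chromosome 30 had 45.6, 19.5 and 24.0 normalised reads in HLM23. The gene at 263434 to 264284 on chromosome 21 had 21.7, 28.3 and 37.0. Both were thus read in each HLM23 library at a level well above 3 reads. The gene at 155 to 2780 on chromosome 6, the first gene listed on that chromosome, had 2.17, 7.80 and 51.0 normalised reads in HLM23, and its replicate 1 value is worth only 2 reads. A count of 0 in all WT libraries allows up to 3 reads over the group, a mean of 0.968. The HLM23 means of these genes were 30.7, 29.9 and 21.0 times that mean. These values take the HLM23 mean as exact and leave out its spread, so they are not lower bounds on the fold change. The last of them rests on HLM23 replicate 3, and limma gave that gene a log2 fold change of 3.50 with an SE of 0.97.

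A further 7 genes had a WT mean above 0 and below 5, with ratios of HLM23 to WT from 11.9 to 112. NO23G00710 (chromosome 23, 266473 to 269815, minus strand) had 412, 236 and 638 normalised reads in HLM23, against 7.51, 1.92 and 2.02 in WT. It had both the highest HLM23 mean and the highest ratio of means of the 60 genes, 112, and the ratio was 218 without WT replicate 1. Its lowest HLM23 value was 31.4 times its highest WT value, the widest separation among the 57 genes with a WT value above 0.

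The gene at 92837 to 97352 on chromosome 1 had 25.0, 30.2 and 35.0 normalised reads in HLM23, against 0, 1.92 and 0 in WT, which is a total of 2 WT reads. Its ratio of 47.1 is therefore imprecise, while its HLM23 libraries lay close together. The gene at 50437 to 51646 on chromosome 20 had 143, 139 and 75.0 in HLM23, against 0.939, 2.87 and 8.07 in WT, a ratio of 30.1 that was 62.5 without WT replicate 3. The gene at 5547 to 10748 on chromosome 23 had 26.1, 15.6 and 38.0 in HLM23, against 0.939, 1.92 and 2.02 in WT, a ratio of 16.3.

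The remaining 3 genes of this class owed most of their WT mean to WT replicate 2. The gene at 545992 to 547393 on chromosome 19 had 64.1, 45.8 and 90.0 normalised reads in HLM23, against 1.88, 11.5 and 0 in WT. Its ratio was 14.9 with all libraries and 71.0 without WT replicate 2. The gene at 95029 to 95293 on chromosome 20, the shortest gene of the 60 at 201 bases of gene length, had 34.8, 8.77 and 38.0 in HLM23, against 0.939, 4.79 and 1.01 in WT. Its ratio was 12.1, and 27.9 without WT replicate 2. The gene at 600129 to 601713 on chromosome 9 had 47.8, 33.1 and 57.0 in HLM23, against 0.939, 8.62 and 2.02 in WT. Its ratio was 11.9, and 31.1 without WT replicate 2. In all 3 genes the lowest HLM23 library was also replicate 2.

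The other 50 genes were read in WT at a low level and are described better as raised than as switched on. Of these, 22 had a WT mean from 5 to below 20, with HLM23 means from 26.1 to 118 and a median ratio of 4.76. Another 28 had a WT mean of 20 to below 50, with HLM23 means from 84.2 to 339 and a median ratio of 4.89. Among the 22, the gene at 476818 to 478807 on chromosome 8 had the highest ratio. It had 194, 75.1 and 76.0 normalised reads in HLM23, against 5.63, 25.9 and 1.01 in WT. Its ratio of 10.6 was 34.7 without WT replicate 2 and 6.97 without HLM23 replicate 1. The genes at 314708 to 316544 on chromosome 29 and at 182520 to 183762 on chromosome 14 had ratios of 9.08 and 9.04, which were 15.5 and 15.7 without WT replicate 2. Both were separated by more than 3-fold between the lowest HLM23 and the highest WT library, at 65.3 against 19.2 and 66.3 against 17.2.

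Next to NO23G00710, the 9 highest HLM23 means all belonged to genes with a WT mean of at least 20. The gene at 690085 to 692151 on chromosome 16 had 376, 301 and 341 normalised reads in HLM23, against 33.8, 46.9 and 26.2 in WT. It combined a high level, close agreement between the HLM23 libraries and a ratio of 9.52. The gene at 358138 to 360190 on chromosome 15 had 315, 133 and 543 in HLM23, against 35.7, 49.8 and 27.2 in WT, a ratio of 8.79. Here the HLM23 libraries themselves spread over 4.09-fold. The gene at 552215 to 554772 on chromosome 18 had 451, 248 and 271 in HLM23, against 29.1, 61.3 and 33.3 in WT, a ratio of 7.84.

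The gene at 719707 to 721034 on chromosome 5, which has no intron, had 283, 158 and 279.9 normalised reads in HLM23, against 14.1, 61.3 and 17.1 in WT. Its ratio was 7.79, and 15.4 without WT replicate 2. The gene at 496693 to 499544 on chromosome 19 had 349, 173 and 188 in HLM23, against 17.8, 43.1 and 15.1 in WT. Its ratio was 9.32, and 14.3 without WT replicate 2. In these and the chromosome 18 gene, WT replicate 2 was the highest WT library and HLM23 replicate 2 the lowest HLM23 library. The genes at 47326 to 49365 on chromosome 20, 77327 to 79158 on chromosome 3, 843746 to 845399 on chromosome 15 and 231841 to 234234 on chromosome 15 completed the 10 highest, with HLM23 means from 207 to 221 and ratios from 4.47 to 6.85. The chromosome 20 gene was the steadiest of these in WT, at 38.5, 46.0 and 38.3.

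Most of the 60 genes remained at a low mRNA level in HLM23. FPKM, the level scaled to gene length and library depth, had a median over the 60 genes of 4.05 in HLM23 and 0.696 in WT. Over all genes the median FPKM was 16.4 in HLM23 and 18.4 in WT. Over the 57 genes with a WT value above 0, FPKM ratios and ratios under equal library totals had the same median, 4.80. FPKM thus compares the strains on library totals and not on the deposited size factors. Ranked by FPKM among all genes, the median of the 60 stood at percentile 19.1 in HLM23 and 8.44 in WT. Only 2 of the 60 exceeded the median gene in HLM23. These were a short gene of 378 bases at 1230807 to 1231393 on chromosome 3, at 18.2 FPKM in HLM23 against 3.51 in WT, and the chromosome 16 gene at 690085 to 692151, at 16.5 in HLM23 against 1.88 in WT. NO23G00710 reached 10.5 ± 4.12 FPKM in HLM23, against 0.104 ± 0.09 in WT (SD, n = 3 each). In 48 of the 60 genes the HLM23 mean was at least 1 FPKM, and in 35 the WT mean was below 1 FPKM. In 5 of the 60 genes the deposited FPKM rests on a length that differs from the listed gene length.

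Together the 60 genes took a small part of all reads. They held 0.0473%, 0.0343% and 0.0420% of the normalised reads in the HLM23 libraries, against 0.00612%, 0.0101% and 0.00584% in the WT libraries, or 0.0412% ± 0.00651 in HLM23 and 0.00735% ± 0.00238 in WT (SD, n = 3 each). The strains did not overlap, which the rule fixes gene by gene, and the replicate 2 libraries were the lowest of HLM23 and the highest of WT. Without them the means were 0.0446% in HLM23 and 0.00598% in WT. The median of the 60 genes was 106, 74.6 and 95.0 normalised reads in the HLM23 libraries, against 13.1, 22.0 and 13.1 in the WT libraries.

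**Figure D2:**
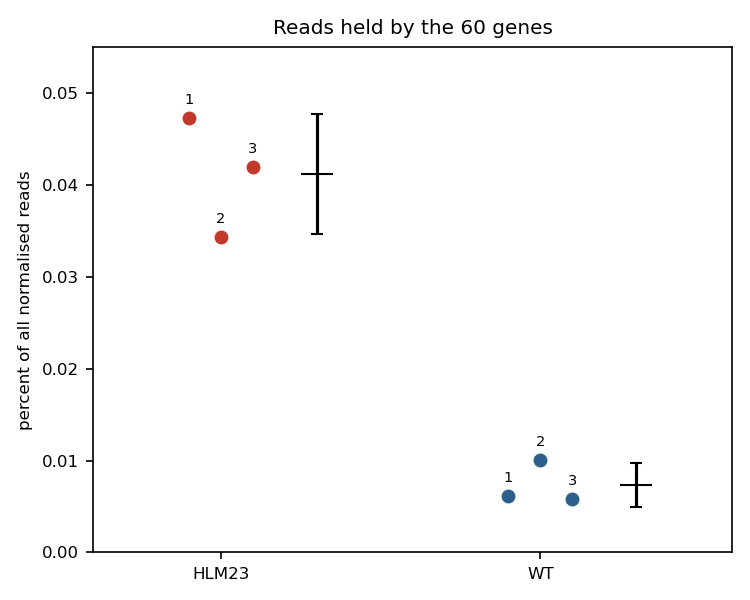
Percent of all normalised reads held by the 60 genes (y axis) in each library of HLM23 and WT, with the replicate number beside each point and the mean with its SD (n = 3) as a black bar. The HLM23 points span 0.0343% to 0.0473%, the WT points 0.00584% to 0.0101%, with replicate 2 closest to the other strain in both.

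Replicate 2 lay between the strains across many of the 60 genes. HLM23 replicate 2 was the lowest HLM23 library in 41 of the 60, replicate 1 in 10 and replicate 3 in 9, whereas over all 9552 genes replicate 2 was the lowest in 2773. WT replicate 2 was the highest WT library in 35 of the 60, replicate 1 in 14 and replicate 3 in 11, and over all genes it was the highest in 2964. In 24 of the 60 both held. Leaving out WT replicate 2 moved the ratio of means by more than 1.5 times in 15 genes, and leaving out replicate 2 of both strains did so in 20. The part of this position in the number of genes found was not tested.

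**Figure D3:**
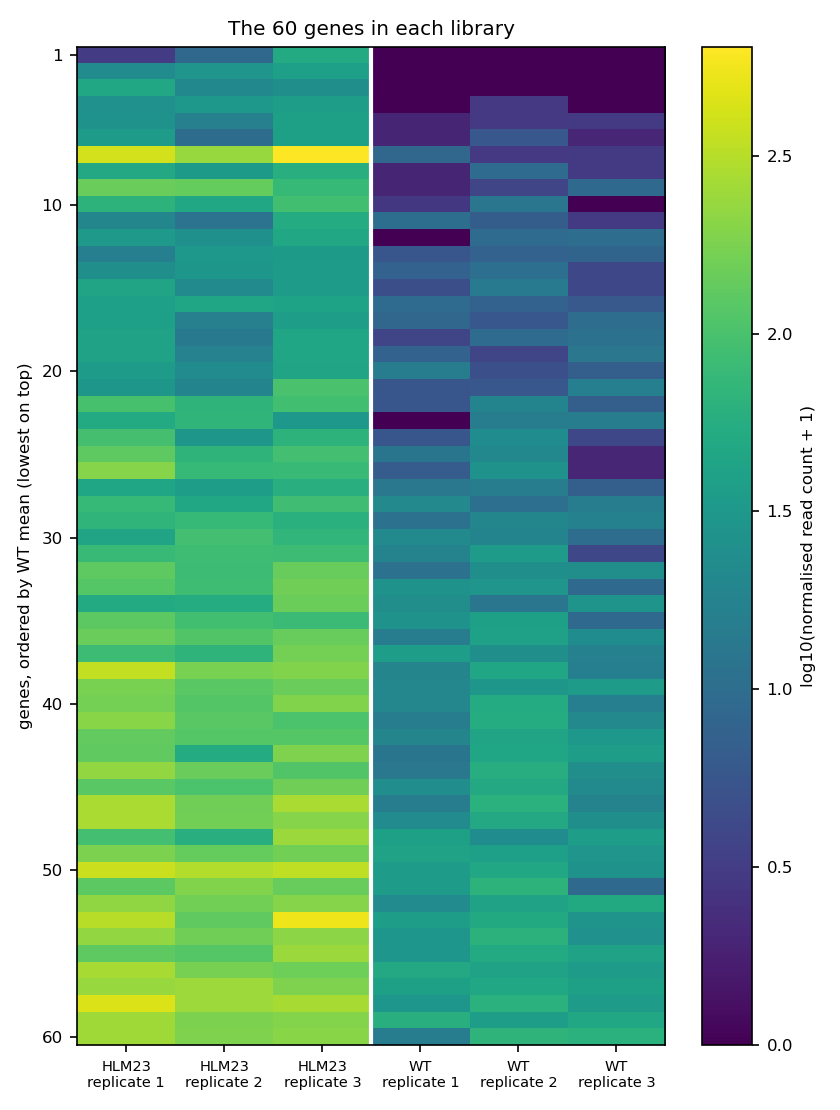
Heat map of log10(normalised read count + 1) for the 60 genes (rows, ordered by WT mean with the lowest on top) in the 3 HLM23 libraries on the left and the 3 WT libraries on the right. The 3 rows at the top are dark in every WT library, where they are listed at 0, and the bright row near the top is NO23G00710, at 412, 236 and 638 in HLM23.

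The HLM23 libraries differed from each other more in the 60 genes than in the typical gene. The SD over the HLM23 mean had a median of 33.0% in the 60 genes, against 18.1% over all genes and 48.1% over the other genes with a WT mean below 50. In 25 genes the highest HLM23 library was at least 2 times the lowest, and in 9 genes at least 3 times. Of these 9, replicate 3 was the highest in 8. Replicate 3 was the highest HLM23 library in 3980 of all 9552 genes and in 600 of the 1207 other genes with a WT mean below 50. After the chromosome 6 end gene, the widest spread was in the gene at 108445 to 110343 on chromosome 6. It had 29.3, 17.5 and 98.0 in HLM23, against 4.69, 4.79 and 15.1 in WT. Its ratio of 5.89 was 2.86 without HLM23 replicate 3 and 10.2 without WT replicate 3. The gene at 1664444 to 1669463 on chromosome 1 followed, with 18.5, 10.7 and 52.0 in HLM23, against 9.39, 5.75 and 2.02 in WT. Its ratio of 4.73 was 2.55 without HLM23 replicate 3. The gene at 167346 to 169985 on chromosome 29 had 92.3, 56.5 and 239.9 in HLM23, against 38.5, 22.0 and 35.3 in WT. Its ratio of 4.06 was 2.33 without HLM23 replicate 3. These 3 genes did not reach a ratio of 4 without HLM23 replicate 3. They were not alone, since 45 of the 60 genes still met the rule without that library. At the other end, the SD was under 20% of the HLM23 mean in 16 genes, among them the gene at 410596 to 414653 on chromosome 5, with 79.3, 85.8 and 83.0 in HLM23, against 16.9, 34.5 and 3.03 in WT.

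In 44 of the 60 genes the lowest HLM23 library was at least 2 times the highest WT library, in 11 at least 4 times, and in 3 less than 1.2 times. The rule already required the lowest HLM23 value to lie above the highest WT value, which held in 23.9% of all genes. These counts therefore describe the choice, and the shares of all genes at these margins were not computed. The rule was met again with any 1 of the 6 libraries left out in 31 genes. Of these 31, 2 were listed at 0 in WT, and the 29 with a computed ratio had a median of 7.79, with 26 at 5 or above. Among the other 29 genes, the 28 with a computed ratio had a median of 4.40 and at most 5.89, and the remaining gene is the chromosome 6 end gene, listed at 0 in WT. The first set includes NO23G00710. Genes with a ratio far above 4 meet the rule more easily when a library is left out. The difference between these medians is thus tied to the limit of 4 and is only a description.

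To read the same measure in libraries not used to pick the genes, genes were chosen by the rule in 4 libraries and their levels looked up in the remaining pair. The limits of the rule were set with results of all 6 libraries known. These readings are therefore a description and not independent support. With replicate 3 left out, 56 genes were chosen, and their median was 69.5 in the left-out HLM23 library against 14.6 in the left-out WT library. The left-out HLM23 value was the higher in 54 of these 56 genes, at least 2-fold in 52 and at least 4-fold in 35. Over all genes HLM23 replicate 3 was higher than WT replicate 3 in 50.4% and at least 4-fold higher in 4.66%. With replicate 1 left out, 65 genes were chosen, with a left-out median of 51.0 in HLM23 against 14.1 in WT. The left-out HLM23 value was higher in 64 of them and at least 4-fold higher in 37, against 49.6% and 4.83% of all genes.

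With replicate 2 left out, 108 genes were chosen, and the separation in the left-out pair was smaller. The left-out median was 66.3 in HLM23 against 24.9 in WT. The left-out HLM23 value was higher in 102 of the 108 genes, at least 2-fold in 69 and at least 4-fold in 22, against 49.6% of all genes that were higher and 1.99% at least 4-fold. The widest exception was a gene on chromosome 5 with 1.95 in HLM23 replicate 2 against 709 in WT replicate 2, which in the libraries used had 7.60 and 282 in HLM23 against 0.939 and 0 in WT. In each of the 3 readings, every chosen gene had a left-out HLM23 value above the highest WT value used in the choice. The 60 genes made up 73.2%, 69.2% and 51.9% of the genes chosen without replicates 3, 1 and 2. Conversely, these choices held 68.3%, 75% and 93.3% of the 60. Genes are not replicates, and each reading rests on 1 library per strain.

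**Figure D4:**
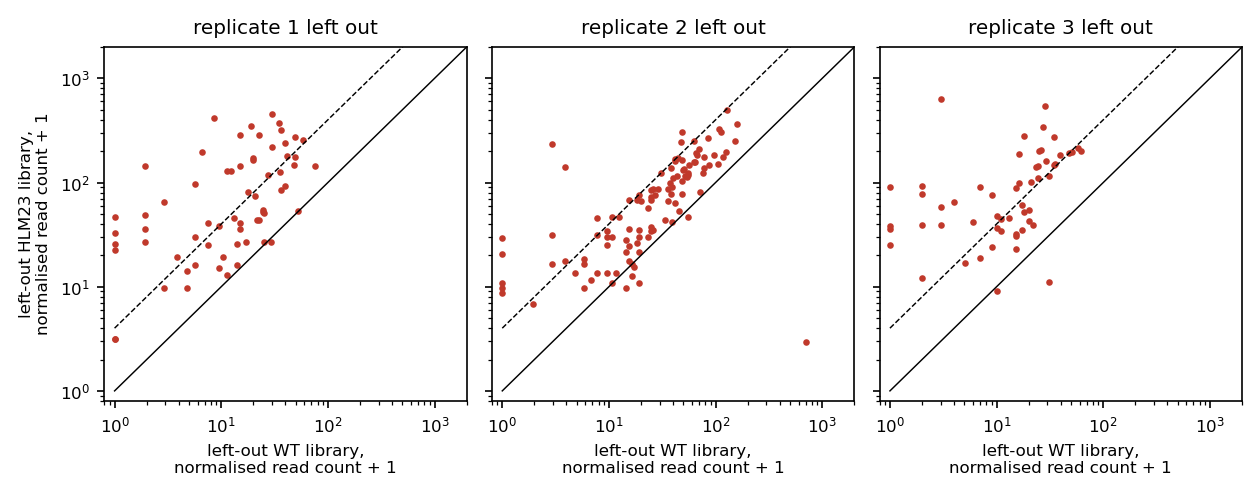
Normalised read count plus 1 in the left-out HLM23 library (y axis, log scale) and the left-out WT library (x axis, log scale) for genes chosen by the rule in the other 4 libraries, with a solid line for equal values and a dashed line for a ratio of 4. Points lie above the solid line in 64 of 65, 102 of 108 and 54 of 56 genes with replicate 1, 2 and 3 left out, and they crowd under the dashed line with replicate 2 left out, where a single point lies at the far right.

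The median gene length of the 60 genes was 1724 bases, with a range from 201 to 10249, against 1907.5 over all genes and 1510 over the other genes with a WT mean below 50. Genes whose span on the chromosome equals their gene length, and which thus hold no intron, numbered 21 of 60 (35%), against 28.5% of all genes and 42.9% of the other weakly read genes. The plus strand carried 26 of the 60 (43.3%), against 49.9% of all genes. The gap to the next gene on the 5′ side had a median of 256 bases, against 257 over all genes and 456 over the other weakly read genes, and its upper quartile was 1025 against 591 and 967. On the 3′ side the median gap was 403 bases, against 220 over all genes and 292 over the other weakly read genes. None of these differences was tested.

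The 60 genes were scattered over 27 of the 30 chromosomes. Chromosome 7 held 5 of them, chromosomes 3, 9, 15 and 19 held 4 each, and chromosomes 11, 25 and 27 held none. The highest density was on chromosome 19, at 4 of 251 genes (1.59%). Near chromosome ends, 3 of the 60 (5%) lay within 10 kb of the first or last listed gene, against 1.80% of all genes and 4.14% of the other genes with a WT mean below 50. Within 50 kb the count was 8 (13.3%), against 7.94% and 14.0%. The 3 end genes lie on chromosomes 6, 9 and 23, the gene on chromosome 9 at 7990 to 11434 with 31.5, 24.4 and 47.0 normalised reads in HLM23, against 0, 8.62 and 9.08 in WT. Chromosome 6, which carries the disrupted gene at 1004518 to 1013731, held 2 of the 60, and the nearer of them lies 894175 bases away.

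Only 4 of the 60 genes had another of the 60 directly beside them. On chromosome 20, the genes at 47326 to 49365 on the minus strand and at 50437 to 51646 on the plus strand point away from each other, 1071 bases apart. Their ratios were 5.40 and 30.1, and their HLM23 means were 221 and 119, against WT means of 40.9 and 3.96. The genes on either side of the pair moved in opposite directions. The one at 39938 to 46536 had a log2 fold change of 1.04 ± 0.24 (SE, limma adjusted p = 0.0083), and the one at 52171 to 57646 had -0.62 ± 0.19 (SE, limma adjusted p = 0.026).

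On chromosome 22, the genes at 654660 to 654974 and at 655513 to 658303 follow each other on the plus strand with a gap of 538 bases. The first had 40.2, 12.7 and 44.0 normalised reads in HLM23, against 2.82, 8.62 and 10.1 in WT. The second had 143, 109 and 141 in HLM23, against 14.1, 39.3 and 22.2 in WT. The gene before them, at 649261 to 654475 on the same strand, was lower in HLM23 (log2 fold change of -0.71 with an SE of 0.16, limma adjusted p = 0.0080), at 1137 ± 138 in HLM23 against 1858 ± 238 in WT (SD, n = 3 each). The gene after them had a log2 fold change of 0.0089 (limma adjusted p = 0.99).

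Of the tested genes beside the 60, 20.4% were called higher in HLM23, against 14.5% of all tested genes; the difference was not tested. Of 113 tested neighbours that are not themselves among the 60, 23 were called higher and 15 lower by limma, and 75 did not pass. Their median log2 fold change was 0.26, against -0.0022 over all genes. The median was 1.26 in the 25 tested neighbours with a WT mean below 50, of which 5 were called higher, and -0.0089 in the 88 with a WT mean of at least 50, of which 18 were called higher. On the 5′ side the median was 0.44, with 13 of 56 called higher, and on the 3′ side 0.019, with 10 of 57. Of the 42 tested neighbours at least 500 bases away, 7 were called higher and 8 lower, with a median of 0.066. At 2 places away, without genes also directly beside one of the 60, 7 of 112 tested genes (6.25%) were called higher and 16 lower. Their median was 0.011. With such genes kept, 4 of 58 were called higher on each side, with medians of 0.033 on the 5′ side and -0.063 on the 3′ side. At 3 places, 6 of 58 were called higher on the 5′ side and 12 of 58 on the 3′ side, so the share of higher calls did not decline steadily with distance. Between 17 and 26 neighbours were called higher when 1 library was left out.

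**Figure D5:**
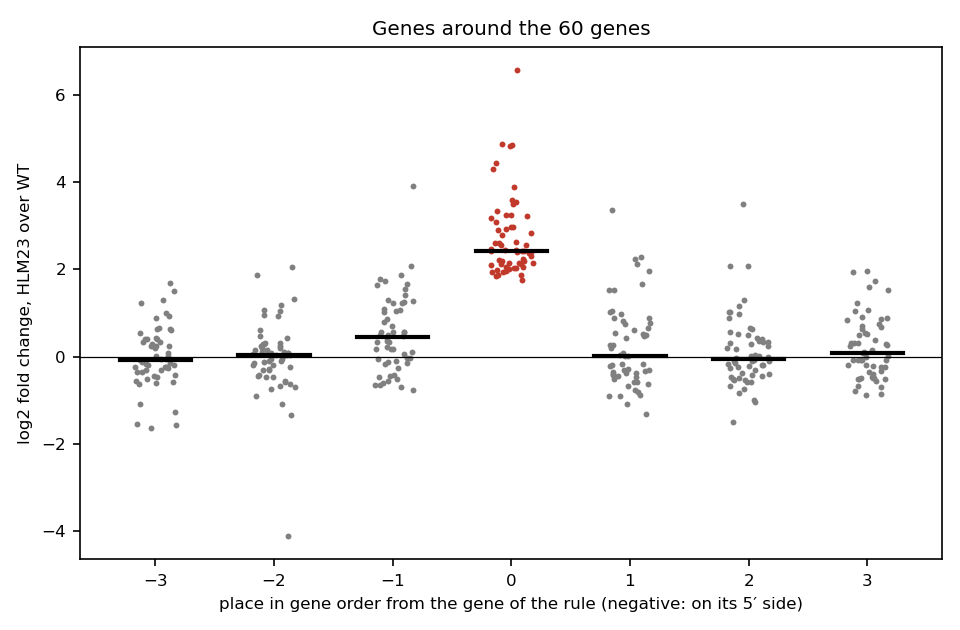
Log2 fold change of HLM23 over WT (y axis) for genes 1 to 3 places away from each of the 60 genes on its 5′ side (negative) and 3′ side, in grey, with the 60 genes themselves at place 0 in red and the median of each place as a black bar. The red values chose the genes. The grey medians lie between -0.069 and 0.081 at every place but the first on the 5′ side, where the median is 0.44.

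Some neighbours were as weakly read in WT as the genes of the rule. Beside the chromosome 21 gene at 263434 to 264284, the gene at 266354 to 268096 on the same strand had 20.6, 9.75 and 28.0 normalised reads in HLM23, against 0, 0 and 1.01 in WT (log2 fold change of 3.90 with an SE of 0.69, limma adjusted p = 0.0019), and its HLM23 mean of 19.5 lay just outside the rule. Its other neighbour, at 260914 to 261726, had 0, 0.975 and 11.0 in HLM23 and was listed at 0 in WT (limma adjusted p = 0.30). On chromosome 23, the gene at 15842 to 16696, which follows the member at 5547 to 10748 after 5093 bases, had 11.9, 12.7 and 11.0 in HLM23, against 0, 0 and 1.01 in WT (log2 fold change of 3.35 with an SE of 0.68, limma adjusted p = 0.0040). The gene after it, at 17087 to 23864, was read at 783 ± 49.5 in HLM23 and 902 ± 39.1 in WT (SD, n = 3 each) and did not pass (limma adjusted p = 0.35). On chromosome 14, the member at 182520 to 183762 lies 2 places from a gene at 172006 to 174641 that was lower in HLM23, with 6.52, 0 and 3.00 normalised reads against 46.0, 28.7 and 109 in WT (log2 fold change of -4.11 with an SE of 0.74, limma adjusted p = 0.0022). The gene between them did not pass, with a log2 fold change of 0.55 (limma adjusted p = 0.095).

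Overlap of genes limits some of the values. The sources used here do not state how strand was handled in counting, and 6 of the 60 genes overlap a neighbour on the opposite strand by 8 to 1923 bases. Reads of such a pair cannot be told apart in the shared bases unless strand was used, and in 3 of the pairs the neighbour was called higher in HLM23 as well. The chromosome 3 gene at 77327 to 79158 shares 1006 bases with a gene that stood at 1411 ± 526 in HLM23 and 317 ± 83.0 in WT (SD, n = 3 each, log2 fold change of 2.11 with an SE of 0.28, limma adjusted p = 0.00057). The chromosome 8 gene at 1209098 to 1210371 shares 271 bases with a gene at 1071 ± 122 in HLM23 and 454 ± 82.6 in WT (SD, n = 3 each, log2 fold change of 1.25 with an SE of 0.19, limma adjusted p = 0.00094). The chromosome 19 gene at 545992 to 547393 shares 45 bases with a gene at 519 ± 104 in HLM23 and 163 ± 35.5 in WT (SD, n = 3 each, log2 fold change of 1.67 with an SE of 0.24, limma adjusted p = 0.00074). In the other 3 pairs the neighbour did not pass.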

How the data were processed

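Messenger RNA of 3 HLM23 and 3 WT samples was sequenced as paired reads, and samples were assigned by title. The deposited sample columns hold a signal, gene reads over the authors' size factors, since every value is a whole number of steps of its library (tolerance 0.001). The authors deposited FPKM, used as a level per length, and their log2 fold change with p-values and adjusted p-values, used for a count of calls. Tools in the submitters' processing notes are fastp, HISAT2, featureCounts and DESeq2, while the sources used here give neither versions nor build nor annotation. The 60 genes and the tests were chosen with earlier results of these data known.

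Genes with a mean of at least 1 (9452) were tested on log2(value + 1), a scale that understates changes of low genes, with limma 3.58.1 (R 4.3.3), a trended prior variance and a threshold of 0.05 on Benjamini-Hochberg adjusted p. The limma test was tried on simulated data of 9426 genes for this comparison, where all changed genes had a mean of 20 to 200. It found 61% of 100 genes with a 2-fold change and 99% of 100 with a 4-fold change, and false calls were 4.19%. Recovery was not measured for changed genes with a mean below 20, and many of the genes described here had a WT mean below 20. No count model was run, as the columns of HLM23 replicate 3 and WT replicate 3 did not pass an automatic test for whole reads. In these columns too, every value was a whole number of steps, and the steps, 0.9997 and 1.008, lie close to 1. Read floors cover counting error only.

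The rule for names took by ID the gene with the highest HLM23 mean and that with the highest ratio, which coincide, and by position the 10 highest of each, those listed at 0 in WT, those beside each other and those at the limits. Genes singled out for few WT reads, FPKM, spread, ends, neighbours or overlap, and the chromosome 14 gene, were chosen after their values were seen. Alternatives were another pseudocount, filter, scaling, test and threshold, other limits of the rule, a replicate block and each library left out.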

Additional observations from a re-analysis of the deposited data

How the results depend on the processing

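The number of genes meeting the rule, 60 as reported, was 35 with a WT limit of 25, and 203, 98 and 16 with a ratio of at least 2, 3 and 8. It was 56 to 108 with 1 library or 1 replicate number left out, the highest without replicate 2 of both strains, which also eases the overlap criterion. The opposite rule gave 12 genes and 11 to 36 with libraries left out, the most without replicate 2 of both strains. Equal library totals kept 45 of the 60, all 60 without overlap. Genes past the limma threshold numbered 2730 and 1530 to 2704 with libraries left out, of which 859 to 1331 were higher and 671 to 1373 lower, with 1741 genes without HLM23 replicate 1, 1530 without WT replicate 1 and 1541 without WT replicate 3. At an adjusted p under 0.01 there were 1303, 708 higher and 595 lower. Of the 60 genes, 46 to 60 passed under the alternatives run, while 14.5% of all tested genes were called higher in the main fit. The rule chose the 60 genes on the same contrast, so nothing is read from this range. Of the neighbours called higher, 7 lay at least 500 bases away. Counting the next gene on the same strand, 2 of the 60 lay beside another, and 8 lay within 50 kb of an end. Of 511 ratios recomputed, 21 moved by more than the spread between libraries; that none fell below 1 with a library left out follows from the rule. With the replicate block, 59 of the 60 passed, and 2635 of all tested genes passed in either direction. Pairing by number was not shown: same-numbered libraries' deviations from their strain mean correlated at -0.069, -0.113 and 0.149 for replicates 1, 2 and 3. The fits without replicate 2 of both strains, the opposite rule and the neighbour counts were added after seeing the data. The causes of these changes were not tested. Depth limits genes with a few reads per library, where 1 read moves a ratio.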

Other observations

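Genes listed at 0 in every WT library also stood outside the 60 genes described. Of 7 such genes with an HLM23 mean of at least 5, 3 met the rule and 4 did not reach a mean of 20. The gene at 89539 to 95985 on chromosome 18 had 2.17, 8.77 and 45.0 normalised reads in HLM23, close to the 2.17, 7.80 and 51.0 of the chromosome 6 end gene. The gene at 101036 to 102039 on chromosome 18, beside a member at 103109 to 113443, had 0, 5.85 and 16.0 in HLM23. The genes at 19466 to 20786 on chromosome 30 and at 41551 to 42133 on chromosome 18 had 1.09, 6.82 and 12.0 and 3.26, 5.85 and 9.00. In each of these 4 genes and in the chromosome 6 end gene, HLM23 replicate 3 was the highest library. Replicate 3 was the highest HLM23 library in 600 of the 1207 genes outside the 60 with a WT mean below 50. In the opposite direction, 2 genes were listed at 0 in every HLM23 library with a WT mean of at least 5, and none with a WT mean of at least 20. This pattern was noticed in the data, and no test was made of it.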
